A study of Mus musculus with 9 samples.

Results

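Olfactory receptors are G protein-coupled receptors that sensory neurons of the nose use to detect odorants. In the mouse they form the largest gene family, arranged in clusters on many chromosomes, and each mature olfactory neuron normally expresses a single receptor gene while the rest stay silent. Transcripts of a minority of these genes are also found in male germ cells, and some receptors of this kind have been studied for a part in sperm chemotaxis. The genes described here are the olfactory receptor genes with transcripts in mouse testis. They were chosen by a rule on the counts themselves: every row of the gene table whose symbol is Olfr followed by a number and whose counts over all 9 libraries sum to 30 or more. This gave 84 genes of the 1152 Olfr rows, in a table of 22337 genes. The group was put together in part because Olfr986 differed between 2 of the genotypes, so that difference is given as a description and not as a test.

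The libraries came from whole testes of 3-week-old mice, an age at which the first wave of spermatogenesis is passing through meiosis and the first round spermatids appear. There were 3 wild-type testes (labelled WT-WT), 3 testes of mice heterozygous for the R264W knock-in of Piwil4 (WT-KI, Piwil4 WT/R264W) and 3 of homozygous mice (KI-KI, Piwil4 R264W/R264W). Piwil4 encodes a PIWI protein that is guided by piRNAs to transposons in fetal germ cells, and the study made the knock-in with CRISPR-Cas9, so the allele is not limited to germ cells. No treatment was given. Total counts ran from 17964135 to 24279056 per library. The labels number the libraries 1 to 3 within a genotype. They do not say whether each came from 1 testis or a pool, or from a separate mouse or litter. A numbered testis stands here for a library, and p-values measure the spread between these libraries. A count of 3 in a library, taken as the floor of detection, corresponded to 0.124 to 0.167 CPM, the unit used here for levels (counts scaled to the size of the library), and this covers counting error only.

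Most olfactory receptor genes had no read in testis. Of the 1152 rows, 734 (63.72%) were at 0 in all 9 libraries and 334 had a total above 0 but under 30. By comparison, 2706 of all 22337 genes (12.11%) were at 0 throughout. The total of 30 was an arbitrary limit: Olfr981, Olfr15 and Olfr697 stood just inside it with 30 counts each, while Olfr806, Olfr872 and Olfr979 stood just outside with 29 each. Reads were seen in every library for 70 of the 84 genes, and 14 were at 0 in at least 1 library. In each of the 3 genotypes 64 of the 84 genes had 10 counts or more, and Olfr273, Olfr317, Olfr20 and Olfr33 drew over 50% of their counts from 1 genotype.

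The level was concentrated in a few genes. The 84 genes together took 156.7 to 261.3 CPM of a library, and Olfr46, Olfr1385 and Olfr986 supplied 54.79% of their counts. The 12 highest genes supplied 76.5%. Only these first 3 genes averaged over 10 CPM, 27 averaged at least 1 CPM, and 42 lay under 0.5 CPM, with a median of 0.502 CPM.

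**Figure D1:**
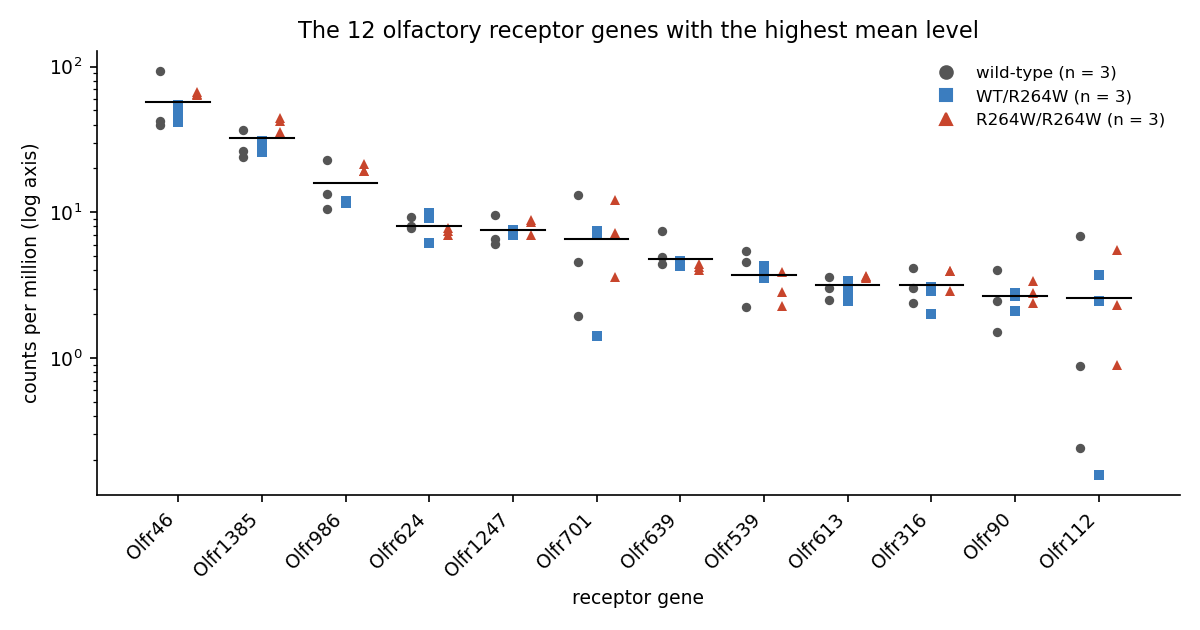
Level in CPM (log axis) of the 12 receptor genes with the highest mean level, 1 point per testis, coloured by Piwil4 genotype, with a black line at the mean of the 9 libraries. Olfr46, Olfr1385 and Olfr986 lie above the rest, and the points of Olfr701 and Olfr112 spread far more than those of the genes beside them.

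Levels of different genes were compared per length, in FPKM, which divides a gene's reads by its length and the library's depth. On this scale Olfr1385 averaged 7.18 and Olfr46 7.14, and the libraries of each overlapped those of the other. Olfr986 averaged 4.67 FPKM, Olfr701 3.44, Olfr316 1.41, Olfr624 1.37, Olfr112 1.28 and Olfr1247 1.22. These 8 genes were the only ones of the 84 with a mean of 1 FPKM or more, and 24 genes averaged under 0.1 FPKM. None of the receptors reached the level of common testis transcripts: Hspa2, a chaperone of pachytene spermatocytes, averaged 595.4 FPKM.

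The genes lay on 14 chromosomes, with 18 on chromosome 7, 16 on chromosome 2, 10 on chromosome 11 and 8 on chromosome 9. Positions are those of GENCODE M21 on GRCm38. The labels name mm39 as the build of the deposited counts, so positions describe the genes and not the reads. Neighbours were common. In 19 pairs both genes had at least 30 counts and lay within 50000 bases of each other, and these pairs involved 36 of the 84 genes. Among them were Olfr701 and Olfr702, 2017 bases apart on chromosome 7, Olfr1508 and Olfr1509, 6255 bases apart on chromosome 14, and Olfr127 and Olfr128, 13753 bases apart on chromosome 17. Mammalian olfactory receptors divide into class I, the fish-like receptors gathered in a single cluster, and class II, the rest. By the receptor family names in RefSeq, 11 of 131 class I rows (8.4%) and 71 of 992 class II rows (7.16%) had 30 counts or more, and 2 genes had no class.

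All 84 genes are protein-coding in GENCODE, 81 of them with a transcript of more than 1 exon. Their coding parts are 912 to 1032 bases long, while the longest coding transcripts run from 1190 to 15582 bases (median 4113), so the coding part is the smaller share of a typical transcript. This mattered for what the counts hold. Reads that align to several genes can be divided among them, which leaves a fractional count. Over all 16774 table genes with 30 counts or more, 1506 (8.978%) had a fractional count in every library. Among the receptors 22 of 84 (26.19%) did, at a tolerance of 0.005 of a count, 15 were fractional in some libraries and 47 were whole in all 9.

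The receptors with fractional counts were also those whose transcripts resemble other genes. Each receptor transcript was aligned with the transcripts of all other genes, and a gene was counted as sharing sequence where at least 100 bases matched at 95% identity or more. The 22 genes that were fractional in all libraries shared such a stretch with 14 to 173 other genes (median 52), on both strands, and all 22 shared with 10 or more genes outside the coding part. The 47 whole genes had a median of 0 shared genes (range 0 to 21), and 25 of them shared with none. Olfr46 shared sequence with 77 genes, Olfr1385 with 87, Olfr986 with 58, Olfr624 with 95 and Olfr90 with 173, whereas Olfr701 and Olfr112 shared with none and Olfr316 only with 2, both in its coding part. The kind of sequence shared was not identified. The 22 genes held 77.46% of the counts of the 84, and the level of each of them therefore cannot be assigned to the receptor gene alone. What part of their counts belongs elsewhere was not tested.

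**Figure D2:**
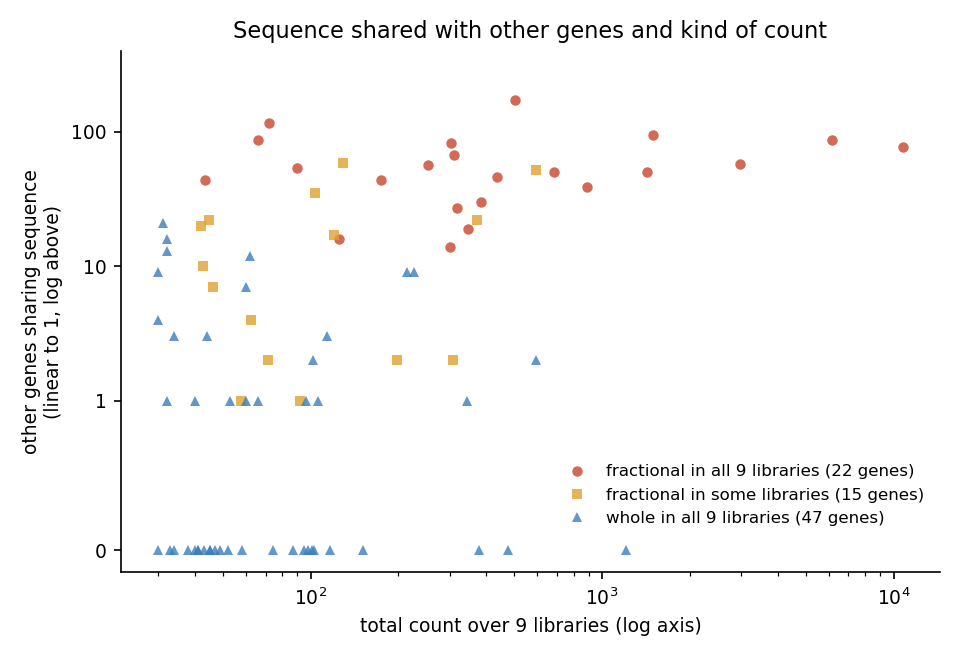
Number of other genes sharing at least 100 bases at 95% identity with each receptor transcript (linear to 1, log above) against the receptor's total count over 9 libraries (log axis). All 22 receptors with fractional counts in every library lie at 14 shared genes or more, and 25 of the 47 receptors with whole counts lie at 0.

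Close relatives within the family were a separate case. Olfr128 shared sequence with 2 genes, both in its coding part, and the longest match was with its neighbour Olfr127. The first 50 coding bases of the pair are shown because they illustrate how alike the receptors are; 49 of 50 are identical, and capitals mark the start codon:
Olfr127: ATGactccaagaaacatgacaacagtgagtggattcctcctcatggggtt
Olfr128: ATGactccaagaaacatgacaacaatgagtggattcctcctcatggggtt
Counts of Olfr127 and Olfr128 were whole in all 9 libraries, with totals of 53 and 102, so no division of reads into fractions was seen. Whether whole reads over such stretches were placed on the right gene of the pair was not tested. Olfr639, Olfr374, Olfr1152, Olfr279, Olfr20 and Olfr181 also overlap another gene on the same strand and 6 others, Olfr31 and Olfr539 among them, overlap a gene on the opposite strand. The sources used here do not say whether counting used the strand.

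Between genotypes neither a receptor gene nor any other gene of the table had an adjusted p under 0.05 by the quasi-likelihood fit of edgeR. DESeq2 gave 1 gene against wild-type, 5 genes between R264W/R264W and WT/R264W testes, of which 1 was a receptor (Olfr986, which this contrast chose), and 0 between WT/R264W and wild-type testes, and limma gave 0 in each pair. Genes are therefore described at an unadjusted p under 0.05. Only receptors with enough counts to pass the filter on low values entered each test: 41 of 84 for R264W/R264W against wild-type testes, 40 for R264W/R264W against WT/R264W and 37 for WT/R264W against wild-type. Comparisons that include the same testes share them and are not independent.

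Olfr986 was the gene whose difference helped to choose the group. In wild-type testes it measured 22.7, 10.6 and 13.4 CPM, in WT/R264W testes 12.02, 11.7 and 11.6 CPM and in R264W/R264W testes 19.3, 21.6 and 19.2 CPM. All 3 homozygous testes lay above all 3 heterozygous ones, and the wild-type testes spanned both. The means were 15.6 ± 6.36, 11.8 ± 0.21 and 20.0 ± 1.32 CPM (SD, n = 3 each), and the log2 difference of R264W/R264W from WT/R264W testes was 0.77. Against wild-type testes the log2 difference was 0.36 ± 0.28 (SE). Without wild-type testis 1, whose level of 22.7 CPM was the highest of all, that difference was 0.74. Both differences rest on the homozygous values that chose the gene and are given as descriptions.

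Of the 40 receptors tested between R264W/R264W and WT/R264W testes, 3 had an unadjusted p under 0.05, 2 of them besides Olfr986, against 2.22% of the 15463 genes tested. Olfr1385 measured 42.5, 44.7 and 35.5 CPM in the homozygous and 27.0, 30.7 and 26.0 CPM in the heterozygous testes. The groups did not overlap, and the log2 difference was 0.55 ± 0.12 (SE; edgeR unadjusted p = 0.0031, adjusted p = 0.948). Olfr46 measured 63.9, 66.7 and 64.8 CPM against 48.1, 54.8 and 41.5 CPM, again without overlap, with a log2 difference of 0.44 ± 0.11 (edgeR unadjusted p = 0.00663, adjusted p = 0.948). With all 9 libraries in one fit the p of Olfr46 was 0.181. All 3 genes are among the 22 with fractional counts, and among all 1462 tested genes of that kind 3.146% had an unadjusted p under 0.05 and 58.76% were higher in the homozygous testes, against 2.124% and 50.53% of the 12570 genes with whole counts. Whether sequence shared with other genes had a part in these differences was not tested. Leaving out Olfr986, which was chosen by this contrast, groups did not overlap for 4 of 39 receptors (Olfr1385, Olfr46, Olfr613 and Olfr31), against 7.06% of all genes tested. The 4 were higher in R264W/R264W testes. The median log2 difference of the 39 receptors without Olfr986 was 0.16, and that of all genes was 0.01. With Olfr986, which was chosen for its difference, the median of the 40 was 0.17, with 25 higher and 15 lower.

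**Figure D3:**
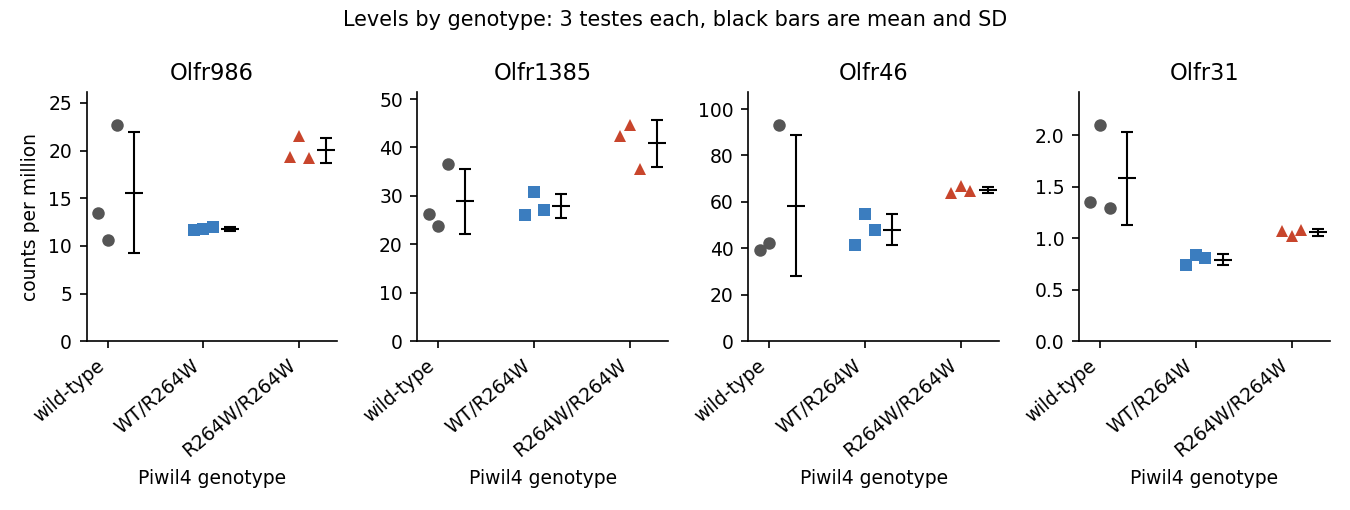
Level in CPM of the 4 receptor genes with an unadjusted p under 0.05 between genotypes, 1 point per testis, with the mean and SD in black. The R264W/R264W testes lie above the WT/R264W testes for Olfr986, Olfr1385, Olfr46 and Olfr31, while the wild-type testes of Olfr986 and Olfr46 spread over the range of both.

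Of the 41 receptors tested between R264W/R264W and wild-type testes, 1 had an unadjusted p under 0.05, against 1.26% of 15543 genes. This was Olfr1385, at 36.6, 23.8 and 26.4 CPM in wild-type testes, so that wild-type testis 1 lay within the homozygous range. Its log2 difference was 0.50 ± 0.19 (SE; edgeR unadjusted p = 0.0345, adjusted p = 1). Each of 4 single libraries, when left out, took the p above the limit: wild-type testes 2 and 3 and homozygous testes 1 and 2, with differences from 0.39 to 0.48. The number of receptors under the limit ran from 0 (without wild-type testis 2, wild-type testis 3 or homozygous testis 2) to 4 (without wild-type testis 1), with 2 without homozygous testis 3. Olfr46 differed by 0.16 ± 0.33 (unadjusted p = 0.655 in edgeR), and the sign turned without wild-type testis 2 (-0.016) or wild-type testis 3 (-0.053), while without wild-type testis 1 it was 0.67 (unadjusted p = 0.000209). The median log2 difference was -0.12 for the 41 receptors, with 20 higher and 21 lower, and -0.005 for all genes. Groups did not overlap for 3 of 41 receptors (7.317%), against 5.58% of all genes: Olfr1279 was higher in R264W/R264W testes, and Olfr639 and Olfr31 were lower.

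Of the 37 receptors tested between WT/R264W and wild-type testes, 1 had an unadjusted p under 0.05, against 1.11% of 15413 genes. Olfr31 measured 1.299, 2.11 and 1.35 CPM in wild-type, 0.808, 0.838 and 0.736 CPM in WT/R264W and 1.07, 1.02 and 1.08 CPM in R264W/R264W testes. The 3 genotypes did not overlap, and heterozygous testes were the lowest. Its log2 difference from wild-type was -0.998 ± 0.30 (SE; edgeR unadjusted p = 0.0145, adjusted p = 1). Its total was only 214 counts, and the call was lost with DESeq2 (unadjusted p = 0.0554) and with limma on log2(FPKM + 0.1) or log2(FPKM + 0.01) (0.0515 and 0.0621). Without wild-type testis 2 the p was 0.0789 and without heterozygous testis 3 it was 0.0521, which left no receptor under the limit in either fit, while 3 were under it without wild-type testis 3. Groups did not overlap for 3 of 37 receptors (8.108%), against 5.36% of all genes, all 3 lower in WT/R264W testes (Olfr31, Olfr1173 and Olfr784). The median log2 difference was -0.26 for the 37 receptors, with 9 higher and 28 lower, and -0.02 for all genes.

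Whole testes of this age also differ in how far the first wave has come, and a measure of this was tested separately. A round spermatid score was taken for each library by averaging the log2 CPM over 18 round spermatid markers, none of them a receptor. It measured 6.21, 3.79 and 2.94 in wild-type, 5.44, 4.71 and 2.36 in WT/R264W and 3.78, 4.62 and 6.09 in R264W/R264W testes, so the testes of each genotype were spread along the score. The genotype means were 4.31 ± 1.70, 4.17 ± 1.61 and 4.83 ± 1.17 (SD, n = 3 each). The slope of each gene on this score was tested over all 9 libraries with genotype in the model. In whole testes, a gene that rises with the score may be in more cells or have more RNA per cell, and these cannot be told apart. Markers of other cells also followed the score. At an adjusted p under 0.05 in edgeR, 10 of 10 elongating spermatid and 9 of 12 pachytene spermatocyte markers rose. Of 6 Leydig markers 2 rose. Of 12 markers of early meiosis and spermatogonia 1 rose and 6 fell, and of 10 Sertoli markers 1 rose and 4 fell. By this limit 18.3% of all genes rose. Which cells carry a rise cannot be told from this score.

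Of the 46 receptors tested, 5 (10.87%) had a slope with an adjusted p under 0.05 in edgeR, against 28.3% of the 15753 genes tested, which include these receptors and leave out the 18 markers of the score. All 5 rose with the score, as did 18.3% of all genes by the same limit. None of the 46 fell by this test. DESeq2 called 4312 genes, 7 of them receptors: the same 5, Olfr127 and Olfr787. Limma called 5010 genes, 5 of them receptors: Olfr112, Olfr127, Olfr128, Olfr323 and Olfr701. Olfr323 did not pass the edgeR filter, and with no filter its edgeR slope was -0.39 (adjusted p = 0.261). The median slope was 0.08 log2 per score unit for the receptors and -0.02 for all genes.

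Olfr112, on chromosome 17 at 37561668 to 37569451 (GRCm38, minus strand), had the steepest slope. In order of rising score the 9 testes measured 0.158, 0.241, 0.895, 0.881, 2.33, 2.46, 3.72, 5.52 and 6.91 CPM. The testis with the lowest level held only 3 counts. The slope was 1.28 ± 0.10 log2 per score unit (SE; edgeR adjusted p = 3.12e-07), and it ran from 1.12 to 1.39 over the 16 alternatives on the same score.

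Olfr701, the sixth highest receptor by count, also rose along the score, though not at every step. Its testes measured 1.42, 1.93, 3.62, 4.55, 7.27, 7.48, 7.13, 12.1 and 13.1 CPM with rising score. The slope was 0.77 ± 0.08 (SE; edgeR adjusted p = 2.82e-06), with 0.62 to 0.80 over the 17 alternatives. Olfr112 and Olfr701 had whole counts and shared sequence with no other gene.

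Olfr128 and Olfr1508 were lower and noisier. Olfr128 measured 0.0526 CPM in the testis with the lowest score and 1.59 and 1.39 CPM in those with the highest scores, with a slope of 1.08 ± 0.21 (SE; edgeR adjusted p = 0.00186). Olfr1508 measured 0.0526 CPM in the first and 0.740 and 1.72 CPM in the last, with a slope of 0.85 ± 0.19 (edgeR adjusted p = 0.00503). Its adjusted p was 0.109 without wild-type testis 1 and 0.104 without the 2 testes farthest from the median score. Totals were 102 and 101 counts, and both genes were under the floor in the testis with the lowest score.

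**Figure D4:**
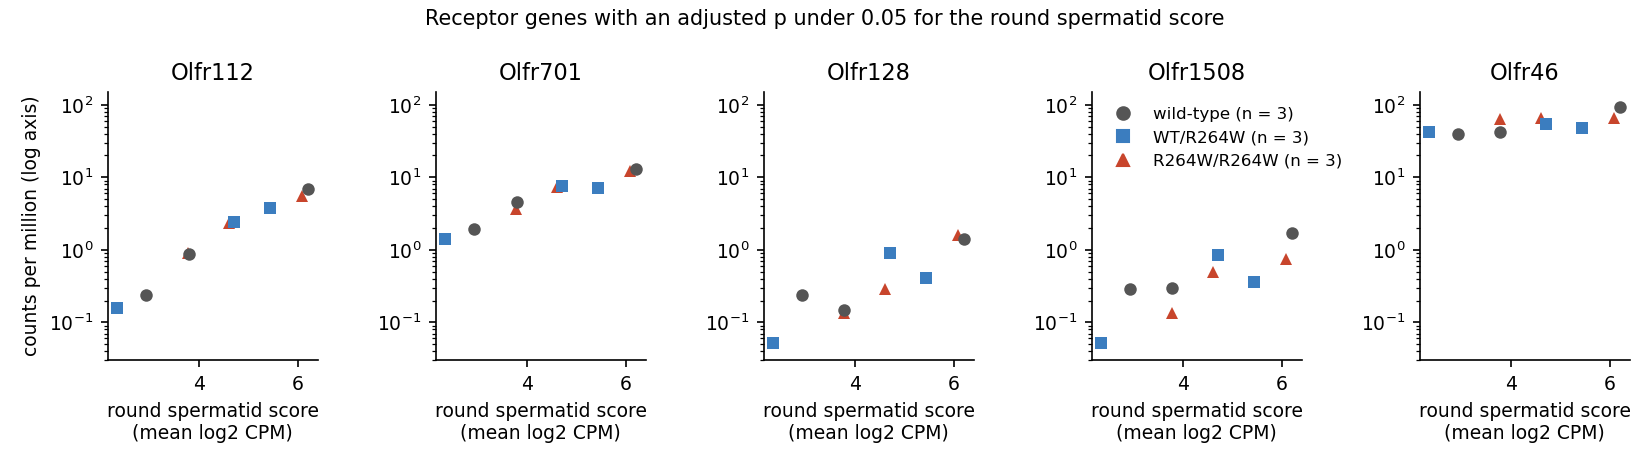
Level in CPM (log axis) of the 5 receptor genes with an adjusted p under 0.05, against the round spermatid score of each testis, coloured by genotype. Olfr112 climbs from 0.158 to 6.91 CPM and Olfr701 from 1.42 to 13.1 CPM, with all genotypes along the same course, while Olfr46 changes little.

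Olfr46, the receptor with the most counts, had a shallow slope of 0.21 ± 0.06 (SE; edgeR adjusted p = 0.0115). Wild-type testis 1, at 93.3 CPM, stood above all other testes (39.4 to 66.7 CPM), and without it the slope was 0.07 with an adjusted p of 0.295. The call was also lost without wild-type testis 3 (adjusted p = 0.0853), without the 2 testes farthest from the median score (0.151) and with limma (0.0644). Olfr1385 and Olfr986 had slopes of 0.07 and 0.13 with adjusted p of 0.297 and 0.114 in edgeR, and without wild-type testis 1 both were just under 0 (-0.024 and -0.012). The number of receptors with an adjusted p under 0.05 ran from 3 (without wild-type testis 1) to 9 (without heterozygous testis 1), with 8 without heterozygous testis 2, heterozygous testis 3 or homozygous testis 2.

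Neighbours of Olfr128, Olfr1508 and Olfr701 had low counts. Olfr127 and Olfr1509 did not pass the filter, and neither did Olfr702. Olfr539, which lies 42252 bases from Olfr46, had 682.51 counts and passed it. Its slope was 0.17 (edgeR adjusted p = 0.161). With no filter Olfr127 had a slope of 1.02 (edgeR adjusted p = 0.0125) and Olfr1509 of 0.68 (adjusted p = 0.111). Olfr127 and Olfr128 resemble each other closely, as their sequences show, and their counts were whole. Whether part of the one gene's reads belongs to the other was not tested.

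**Figure D5:**
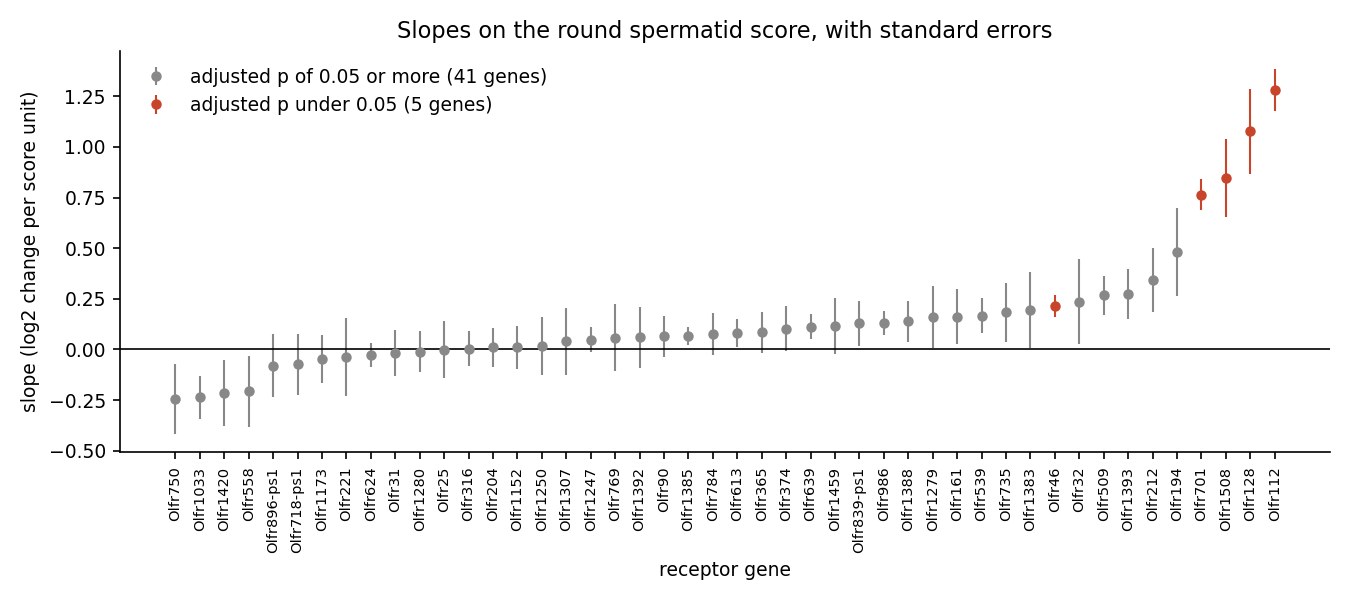
Slope of each of the 46 tested receptor genes on the round spermatid score, in log2 change per score unit with its standard error, in rising order. The 4 genes at the right, Olfr701, Olfr1508, Olfr128 and Olfr112, have slopes of 0.77 to 1.28, and the fifth gene with an adjusted p under 0.05, Olfr46, lies among the others.

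The promoters of Olfr701 and Olfr1508 are shown because both genes rose with the score and their RefSeq start lies at or near the start of the GENCODE transcript. RFX factors, which include regulators of spermatid genes, bind a half-site searched here as GTTGCC or GTTGCT on both strands. This motif was chosen after these sequences had been seen. Windows run from 250 bases before to 50 after the RefSeq start, on GRCm38.p6, and capitals mark the half-site. Olfr701 is chr7:106813879-106814178 on the plus strand and Olfr1508 is chr14:52467412-52467711 on the minus strand:
Olfr701: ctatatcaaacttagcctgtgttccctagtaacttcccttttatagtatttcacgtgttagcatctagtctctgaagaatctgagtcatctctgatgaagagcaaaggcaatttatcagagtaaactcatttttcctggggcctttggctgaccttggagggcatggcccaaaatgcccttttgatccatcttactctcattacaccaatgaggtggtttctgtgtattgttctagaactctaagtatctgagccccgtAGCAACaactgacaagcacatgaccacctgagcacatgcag
Olfr1508: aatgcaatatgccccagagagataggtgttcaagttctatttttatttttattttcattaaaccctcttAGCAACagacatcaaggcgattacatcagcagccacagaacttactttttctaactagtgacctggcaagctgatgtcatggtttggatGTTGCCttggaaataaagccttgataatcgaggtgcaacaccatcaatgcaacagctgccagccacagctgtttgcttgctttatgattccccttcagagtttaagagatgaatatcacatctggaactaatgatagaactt
Olfr701 held 1 match and Olfr1508 held 2. Olfr46 also rose with the score, and its RefSeq start lay 71 bases inside the GENCODE transcript. Its window, not shown, held 0 matches. The window of Olfr128, which rose too, lay 3020 bases inside the transcript and held 0. Olfr112, which had the steepest slope, had no window. The half-site was present in 10 of the 73 receptors with a window (13.7%), in 15.7% of all Olfr windows and in 25.1% of all promoters of the same length, so it was not more frequent among these receptors. A match is a description and not a shown binding site. For 58 of the 73 receptors the RefSeq start lay over 1000 bases inside the GENCODE transcript, and only 7 windows began within 100 bases of its start. Among the other motifs searched on both strands, TATAAA was in 32.9% of the receptors' windows, 41.0% of Olfr windows and 13.6% of all promoters, and the CRE half-site TGACG in 13.7%, 5.59% and 20.8%. In the same order, the homeodomain motif TAATTA was in 9.59%, 18.6% and 5.29%, and the EBF core CCCNNGGG in 1.37%, 3.06% and 13.7%.

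Receptors that have been studied outside the nose were largely silent. Of 10 such genes 9 were in the table. Olfr16, Olfr2, Olfr17 and Olfr160 were at 0 in all libraries, Olfr73 had 1 count, Olfr78 had 13 and Olfr544 had 19.18. Only Olfr558 (96 counts) and Olfr15 (30 counts) reached 30. The markers of olfactory neurons were low as well: the 7 genes summed to 2.93 to 4.04 FPKM per library, and Omp, the olfactory marker protein, averaged 0.0356 FPKM.

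Genes of olfactory transduction and receptor export were mostly present in testis. Of the 29 symbols searched, which include the older names of Grk2 and Grk3, 27 were in the table. These genes summed to 682.3 to 781.6 FPKM, and none was at 0 throughout. Reep1, a receptor transport protein, averaged 43.5 FPKM and Gnal, the olfactory G protein subunit, 2.09 FPKM, while Cnga2, the main subunit of the olfactory cyclic nucleotide channel, averaged 0.00556 FPKM and Rtp2, an export protein, 0.00778 FPKM. None of the 20 tested for R264W/R264W against wild-type, or of the 19 tested in each other pair, had an unadjusted p under 0.05. With the score, 3 of 20 rose (Pde4a, Grk3 and Cnga4) and 1 fell (Gnas) at an adjusted p under 0.05 in edgeR, against 28.3% of all genes called and 18.3% that rose. Pde4a, a cyclic AMP phosphodiesterase, rose by 0.72 ± 0.04 log2 per score unit.

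All 10 factors of receptor choice were tested. Ebf4 was lower in R264W/R264W than in wild-type testes (log2 difference -0.80, edgeR unadjusted p = 0.0217) and Ebf3 lower than in WT/R264W testes (-0.49, unadjusted p = 0.0104), both without passing the adjusted limit. Each was 1 of 10 factors in its pair, against 1.26% and 2.22% of all genes with an unadjusted p under 0.05. With the score, 3 of the 10 (Lhx2, Ldb1 and Lbr) had an adjusted p under 0.05 in edgeR, 1 of them higher and 2 lower. This was near the 28.3% of all genes called by the same limit. Among other chemoreceptor families, 14 of 231 Vmn1r rows (6.061%), 17 of 123 Vmn2r rows (13.82%) and 2 of 3 Tas1r rows had 30 counts or more, and none of the 15 Taar, 35 Tas2r or 7 Fpr rows did.

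Markers of other cells were compared between genotypes in the same way. No round spermatid, pachytene spermatocyte, Leydig, myoid, endothelial or macrophage marker had an unadjusted p under 0.05 in any pair. Of 10 Sertoli markers, 1 was higher in R264W/R264W than in wild-type testes by this limit, against 1.26% of all genes called in that pair. The round spermatid markers summed to 329.6 to 1321 FPKM in wild-type, 280.9 to 921.6 in WT/R264W and 502.6 to 1330 in R264W/R264W testes. The summed Leydig markers measured 279.6, 143.9 and 105.6 FPKM in wild-type, 162.3, 208.7 and 106.8 in WT/R264W and 204.7, 256.0 and 279.1 in R264W/R264W testes. Homozygous testis 1 held 33.81 FPKM of epididymal markers against at most 7.76 in the others, and homozygous testes 2 and 3 held 8.79 and 13.04 FPKM of adipose markers against at most 6.47 elsewhere. Their part in the receptor levels was not tested. With the score as a covariate, 4 receptors had an unadjusted p under 0.05 between R264W/R264W and wild-type testes and 5, Olfr986 among them, between R264W/R264W and WT/R264W testes, against 5.11% and 3.23% of all genes in the same fits.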

How the data were processed

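Whole-testis RNA was sequenced by the authors in 9 libraries made with an mRNA-seq kit. The submitters' processing notes name fastp 0.18.0, StringTie 1.3.1 and mm39. The deposited table holds estimated counts, of which 89.2% are whole, and FPKM values made by the authors, and the counting tool is not given in the sources used here. Counts were rounded and tested with edgeR 4.0.16 (filterByExpr, TMM scaling, quasi-likelihood test, Benjamini-Hochberg adjustment over all genes tested), genotype by genotype, and on a round spermatid score (mean log2 CPM, prior count 1) over all 9 libraries. CPM of single genes used TMM over 9 libraries. The floor of detection and the summed CPM of the 84 genes used library totals without TMM. DESeq2 1.42.0 and limma 3.58.1 on log2(FPKM + 0.1) were alternatives. Transcripts of GENCODE M21 were compared with BLAST 2.17.0. Members, gene lists and tests were chosen with earlier results of these data known. Genes named were Olfr986, the 12 highest, those with an unadjusted p under 0.05 by genotype or an adjusted p under 0.05 by score, the 3 on each side of the count limit, and the listed genes. The scripts were tested on simulated data.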

Additional observations from a re-analysis of the deposited data

How the results depend on the processing

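Values are numbers of receptors under the p limit, unadjusted between genotypes and adjusted for the score. For R264W/R264W against wild-type the count of 1 became 3 with limma on log2(FPKM + 0.1), 2 with a pseudocount of 0.01, 4 without a filter on low FPKM and 4 with the score as a covariate, and it ran from 0 to 4 without 1 replicate each. For R264W/R264W against WT/R264W the count of 3 became 5 with limma without a filter and 5 with the score as a covariate, and ran from 3 to 4 without 1 replicate each. For WT/R264W against wild-type the count of 1 became 0 with DESeq2, 2 without a filter and 2 with limma without a filter, and ran from 0 to 3 without 1 replicate each. For the score the count of 5 became 3 where every library needed 10 counts, and ran from 3 to 9 without 1 replicate each. The cause was not tested. Of the changes recomputed for Olfr986, Olfr1385, Olfr46, Olfr31, Olfr112, Olfr128, Olfr1508 and Olfr701, 4 turned their sign, all among values that had not passed the limit: Olfr46 in R264W/R264W against wild-type testes was -0.016 without wild-type replicate 2 and ran from -0.053 to 0.67 without 1 replicate each, and the score slopes of Olfr1385 and Olfr986 ran from -0.024 to 0.11 and from -0.012 to 0.18, the lowest without wild-type replicate 1. For Olfr31 the call was lost with limma although its count stayed at 1, through Olfr545.

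Deviations of same-numbered testes from their genotype means had correlations from -0.73 to 0.78, and those of differently numbered testes from -0.81 to 0.80. These values cannot tell whether the numbers mark a shared litter or day, which the labels do not say. The main tests did not pair the testes. With the replicate block the counts were 1, 3 and 1 between genotypes and 4 for the score, where Olfr46 had a slope of 0.17 and an adjusted p of 0.0555. With 3 testes a genotype and 42 receptors under 0.5 CPM, small differences were not detectable at this depth.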
